A study of Mus musculus with 12 samples.

Results

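Chemokines, interleukin-6 (IL-6) family cytokines and adhesion ligands are the messages by which connective tissue cells call and hold leukocytes, and 10 genes of this kind were examined in fibrochondrocytes of the mouse mandibular condylar cartilage. The genes were taken by symbol from the deposited table and comprise 6 chemokines (Ccl2, Ccl7, Cxcl1, Cxcl5, Cxcl12 and Cx3cl1), 2 cytokines of the IL-6 family (Il6 and Lif) and 2 adhesion ligands (Icam1 and Vcam1). They are 10 of the 31075 genes in the table, and all 10 were among the 19118 genes that passed a filter on low counts. RNA sequencing compared primary cells of knockout pups, which carry a reporter-tagged deletion allele of the proteoglycan gene Cspg4 (NG2), with primary cells of wild type C57BL/6J pups. The knockout line had been backcrossed to C57BL/6J, the pups of both genotypes were 10 to 14 days old, the deletion was present in every cell of the animal, and RNA was taken at passage 4 by the labels, whereas the study's methods have primary cells used at a lower passage. Each genotype was cultured in Opti-MEM without added serum (Opti) or in AMEM with heat-inactivated fetal bovine serum (Norm), both with L-glutamine, penicillin and Plasmocin. This gave 4 groups of 3 libraries: KO_Opti, KO_Norm, WT_Opti and WT_Norm.

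The labels of the 6 knockout libraries contradict themselves: where the title gives one medium, the treatment entry gives the other. The groups follow the title, and values that depend on this choice are given under the other reading as well. The medium comparison in wild type cells and the comparison of genotypes over both media are the same under either reading. Serum and basal medium were changed at once, and their effects cannot be told apart. The study's methods call the replicates biological without saying whether they came from separate animals, litters or cultures, so each p-value refers to the variation among the libraries at hand.

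The libraries held 51546504 to 71448484 counts. Cspg4 measured 10.53 to 16.58 CPM (counts scaled to library size) in the knockout libraries and 113.5 to 216.3 CPM in the wild type libraries. The collagen gene Col1a1 was at 17900 CPM or more in every library, and the one lymphoid marker in the table stayed at 0.141 CPM or less. The cartilage gene Col2a1 measured 16.7 to 19.4 CPM in WT_Opti and 70.7 to 81.6 CPM in WT_Norm. Acan measured 1.19 to 2.41 CPM and 62.7 to 69.2 CPM there. Of 10 fibrochondrocyte markers, 1 was higher and 6 were lower in Opti in wild type cells (20.3% and 19.6% of all genes). Over both media 4 were higher and 6 lower in knockout cells (18% and 16% of all genes). Myeloid markers were present in every library. The summed level of 16 such genes was 212 to 242 CPM in KO_Opti, 605 to 664 CPM in KO_Norm, 692 to 1210 CPM in WT_Opti and 577 to 719 CPM in WT_Norm. Of the 13 myeloid markers tested, 11 were lower and 0 were higher in knockout than in wild type cells over both media (16% and 18% of all genes). In bulk RNA, fewer cells of a type and less RNA per cell cannot be told apart. Y-linked genes summed to 73.54 to 129.3 CPM in knockout and to 37.51 to 66.06 CPM in wild type libraries, so that this sum separates the genotypes as well. It was 73.5 to 82.1 CPM in KO_Opti and 113 to 129 CPM in KO_Norm, so it also separates the media in knockout cells. One library stood apart for several of the genes described here: WT_Norm replicate 1 held 56.8 CPM of the epithelial keratin gene Krt8 and 46.6 CPM of its partner Krt18, against at most 1.52 CPM of Krt8 in the other WT_Norm libraries. WT_Norm replicate 1 was the highest WT_Norm library for 8 of the 10 genes. WT_Norm replicate 2 stood apart for endothelial genes, with 11.9 CPM of Pecam1 and 12.9 CPM of Cdh5, against at most 1.12 and 0.712 CPM in the other 11 libraries, and it was the highest WT_Norm library for 0 of the 10 genes.

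Chemokines are small secreted proteins that bind heptahelical receptors and set the direction in which leukocytes move. Connective tissue cells make them in response to inflammatory cytokines and growth factors, largely through the transcription factors NF-kappaB, AP-1 and C/EBP. Cytokines of the IL-6 family signal through the shared receptor chain gp130, encoded by Il6st, to the transcription factor STAT3. ICAM-1 and VCAM-1 are membrane proteins of the immunoglobulin superfamily which hold leukocytes through integrins. In joints, all of these molecules are known from the inflamed synovium and from cartilage under stress.

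Compared per transcript length (FPKM, a count scaled by gene length and library size), Vcam1 had the highest mean of the 10 genes in KO_Opti (9.66 to 11.8 FPKM) and in WT_Opti (8.45 to 10.1 FPKM). In KO_Norm the chemokine Ccl7 was first with 16.7 FPKM (11.1 to 22.9 FPKM). Vcam1 followed at 11.2 FPKM, and its range of 10.7 to 11.8 FPKM overlaps the low end of the Ccl7 range. In WT_Norm the mean of Cxcl5 was first at 15.3 FPKM only through replicate 1, since its range was 2.98 to 39.7 FPKM, and it was followed by Cx3cl1 and Vcam1 at 13.2 FPKM each. Il6 was last in KO_Norm (0.101 FPKM), WT_Opti (0.0149 FPKM) and WT_Norm (0.0715 FPKM). In KO_Opti Il6 reached 1.15 FPKM and Icam1 was last with 0.861 FPKM. Lif was 4th of 10 in KO_Opti at 6.80 FPKM and 9th in WT_Opti at 1.09 FPKM. Neighbours in these orders overlapped in many places: in KO_Opti the ranges of Ccl2, Ccl7 and Lif share values between 7.80 and 7.82 FPKM.

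**Figure D1:**
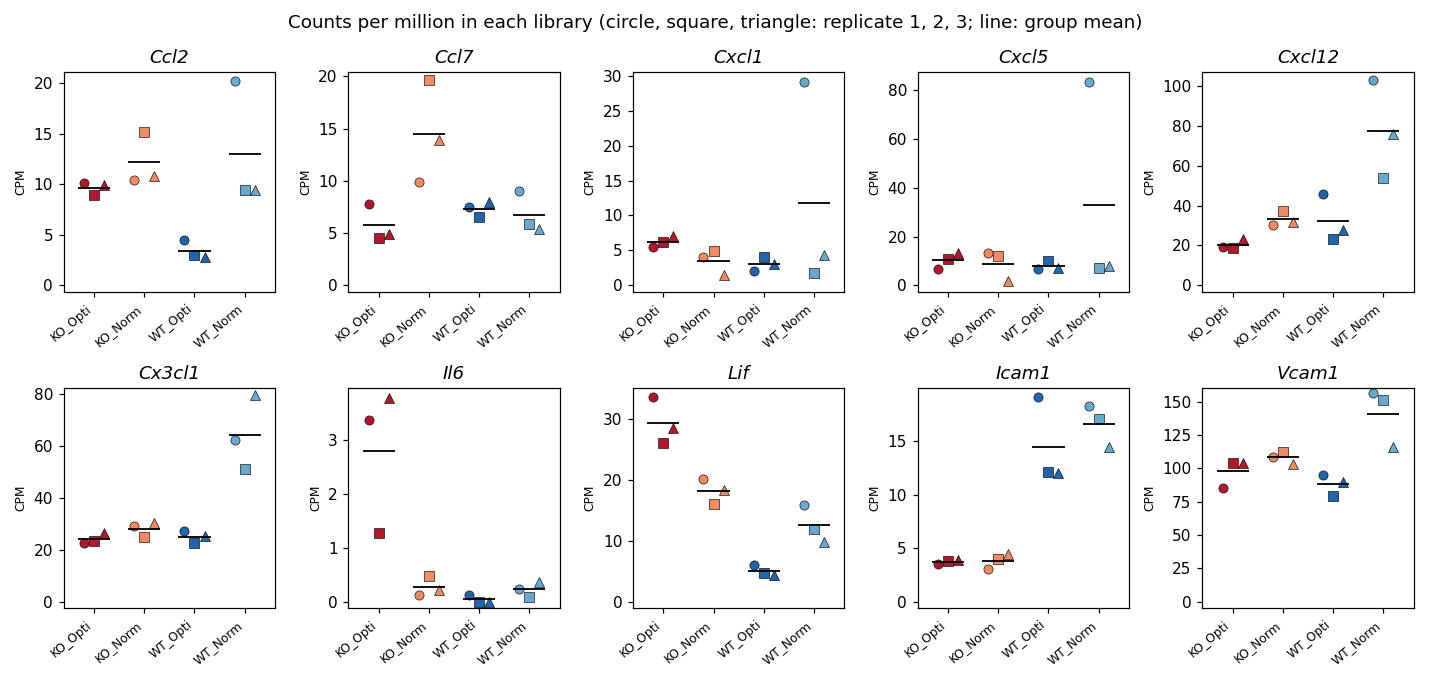
CPM (linear axis, a different range in each panel) of the 10 genes in the 12 libraries. Symbols mark replicates 1 to 3 and lines the group means. Il6 is above 1 CPM in the 3 KO_Opti libraries alone, Icam1 is below 5 CPM in all 6 knockout libraries and above 12 CPM in all 6 wild type libraries, and the WT_Norm means of Cxcl1 and Cxcl5 are set by replicate 1.

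In wild type cells 5 of the 10 genes were lower and 0 were higher in Opti than in Norm. Ccl2, Cxcl12, Cx3cl1, Lif and Vcam1 were lower in WT_Opti than in WT_Norm, in each case without overlap between the groups. Over all genes tested, 39.8% passed the threshold in this comparison, 19.6% lower and 20.3% higher, and 24.5% had WT_Opti values all below the WT_Norm values. The median log2 fold change of the 10 genes was -1.34, against -0.01 for all genes. In knockout cells 2 of the 10 were higher (Il6 and Lif) and 1 was lower (Ccl7) in Opti than in Norm by title, against 19.4% of all genes called (8.39% higher and 11% lower), and the median was -0.09, against 0 for all genes. The difference between the medium responses of the genotypes passed the threshold for 6 of the 10 genes, 5 with a positive and 1 with a negative sign (31.4% of all genes, 14.4% positive and 17% negative).

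**Figure D2:**
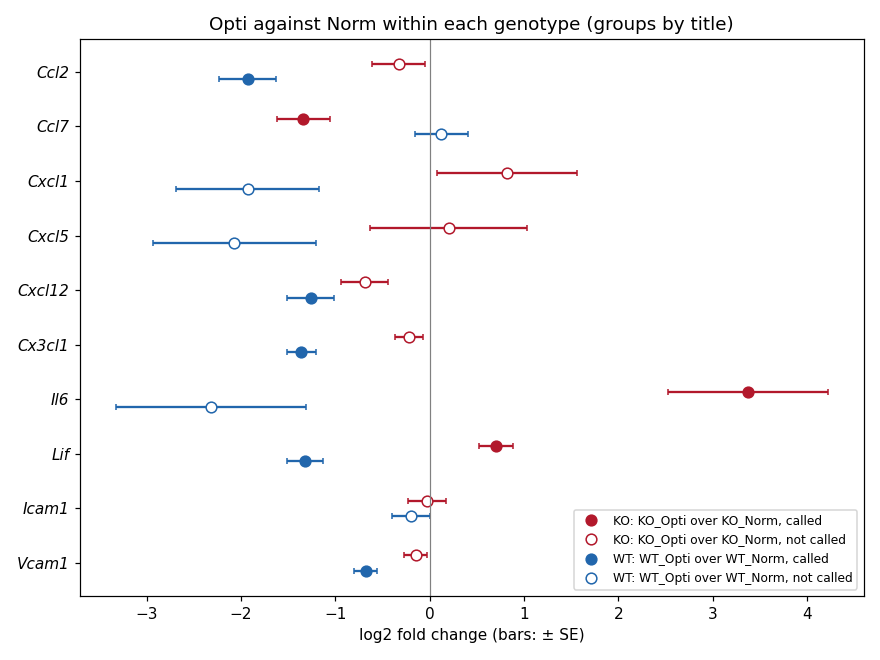
Log2 fold change of Opti against Norm for each gene, in knockout (red) and wild type cells (blue), with bars of 1 SE. Filled points passed an adjusted p of 0.05. In wild type cells 5 filled points lie left of 0, whereas in knockout cells Il6 (3.37) and Lif (0.70) lie right of 0 and Ccl7 (-1.34) left of it.

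Between genotypes over both media, Il6, Lif and Ccl2 were higher and Icam1, Cxcl12 and Cx3cl1 were lower in knockout cells. These are 6 of the 10 genes, against 34% of all genes, with 18% higher and 16% lower. Lif was the only one of the 10 with all 6 knockout values above all 6 wild type values, and Icam1 the only one with all of them below (3.47% and 4.49% of all genes). Within Norm 2 genes were higher and 4 were lower in knockout cells (36.1% of all genes called, 18.9% higher and 17.2% lower), and within Opti 3 were higher and 1 was lower (28.2% of all genes called, 13.3% higher and 14.9% lower). The median of the 10 was -0.78 in Norm and 0.27 in Opti, beside -0.04 and 0.01 for all genes. The medium and genotype comparisons share libraries, so they are not independent of each other. The Y-linked sum nearly follows genotype and also separates KO_Opti from KO_Norm. With it as a covariate, the comparison over both media called 1 of the 10 genes, Icam1, as did the comparison within Norm. Within Opti, Il6, Lif, Ccl2 and Icam1 kept direction and call. Over all genes tested, the covariate left 986 calls over both media, 909 within Norm and 3885 within Opti. Without it there were 6491, 6896 and 5395. With that covariate the only interaction called was Lif, and for medium in knockout cells Il6, Lif and Ccl7 lost their calls and Cx3cl1 passed (-0.70, adjusted p = 0.0218). Calls over all genes went from 6007 to 3457 for the interaction and from 3709 to 1927 for medium in knockout cells. The part of the Y-linked difference in these results cannot be told apart from genotype or, in knockout cells, from medium.

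**Figure D3:**
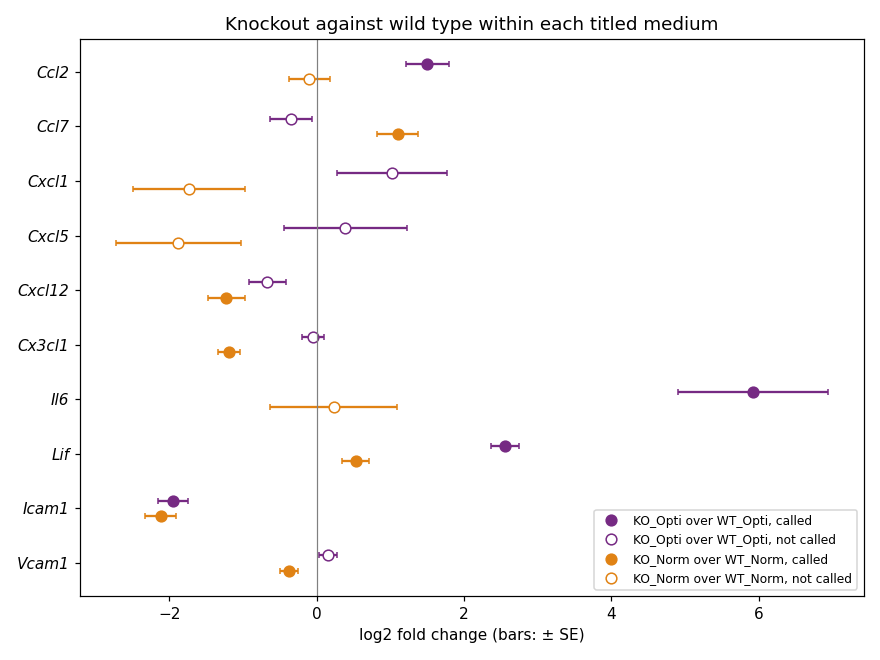
Log2 fold change of knockout against wild type cells for each gene, in Opti (purple) and in Norm (orange) as titled, with bars of 1 SE. Filled points passed an adjusted p of 0.05. Icam1 lies near -2 in both media, while Il6 (5.92) and Ccl2 (1.5) are filled in Opti only.

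Il6 encodes interleukin-6, a cytokine of the acute phase response that signals through the receptor chains encoded by Il6ra and Il6st. It had 237, 95 and 294 counts in KO_Opti, 8, 31 and 14 counts in KO_Norm, 9, 0 and 0 counts in WT_Opti, and 15, 6 and 17 counts in WT_Norm. The 3 KO_Opti libraries were above the other 9, and 2 WT_Opti libraries had none, where 3 counts correspond to about 0.047 CPM. Mean levels were 2.81 ± 1.34 CPM in KO_Opti, 0.27 ± 0.18 CPM in KO_Norm, 0.043 ± 0.074 CPM in WT_Opti and 0.23 ± 0.14 CPM in WT_Norm (SD, n = 3). The summed 626 counts of KO_Opti stand against 9 of WT_Opti, whose 95% Poisson interval is 4.12 to 17.1 counts and covers counting error only.

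Within Opti, Il6 was higher in knockout cells by 5.92 ± 1.02 on the log2 scale (SE, adjusted p = 0.000856). This fitted value depends on the prior count, because WT_Opti was close to 0, and without WT_Opti replicate 1 it became 10.52. Within Norm the genotypes differed by 0.23 (adjusted p = 0.859). Over both media the difference was 3.08 ± 0.66 (adjusted p = 0.00299). In knockout cells Il6 was higher in Opti by 3.37 ± 0.85 (adjusted p = 0.0159). That call was lost without KO_Opti replicate 1, KO_Opti replicate 3, KO_Norm replicate 1 or KO_Norm replicate 3, with adjusted p between 0.0521 and 0.0705 and a log2 fold change between 3.02 and 3.23. In wild type cells the medium difference was -2.32 ± 1.01 and did not pass (adjusted p = 0.088; 0.0254 with DESeq2; -6.92 and 0.00539 without WT_Opti replicate 1, where both remaining WT_Opti libraries are at 0). The interaction of genotype and medium was 5.69 ± 1.31 (adjusted p = 0.0056; 10.29 without WT_Opti replicate 1). Read by the treatment entry, Il6 would be lower in serum-free knockout cells (-3.37), higher in knockout cells within Norm (3.6, adjusted p = 0.00517), and not past the threshold within Opti (2.55, adjusted p = 0.0849) or for the interaction (-1.06, adjusted p = 0.596).

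Lif encodes leukaemia inhibitory factor, which signals through gp130 paired with the receptor chain encoded by Lifr. It measured 33.66, 26.12 and 28.62 CPM in KO_Opti, 20.10, 16.07 and 18.33 CPM in KO_Norm, 6.065, 4.661 and 4.387 CPM in WT_Opti, and 15.85, 12.03 and 9.879 CPM in WT_Norm. The groups formed 4 separate ranges, with KO_Opti at the top and WT_Opti at the bottom. Lif was higher in knockout cells by 1.54 ± 0.13 on the log2 scale over both media (adjusted p = 2.29e-06) and by 2.55 ± 0.19 within Opti (adjusted p = 1.25e-06), where the mean of knockout cells was 5.85 times that of wild type cells. The media moved it in opposite directions: it was lower in Opti by title in wild type cells (-1.32 ± 0.19, adjusted p = 1e-04) and higher in knockout cells (0.70 ± 0.18, adjusted p = 0.0172), with an interaction of 2.02 ± 0.26 (adjusted p = 8.68e-05). The call in knockout cells was lost without KO_Opti replicate 1, KO_Norm replicate 2 or KO_Norm replicate 3 (adjusted p between 0.0583 and 0.0804), and the sign turned to -0.70 under the treatment entry, where the interaction was 0.62 (adjusted p = 0.0772).

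Within Norm the difference of Lif between genotypes was smaller, at 0.53 ± 0.18 (adjusted p = 0.0369). It missed the threshold without WT_Norm replicate 2 or 3, KO_Opti replicate 3 or KO_Norm replicate 1 or 3 (0.37 to 0.53, adjusted p between 0.0525 and 0.141), with size factors of the RLE type (adjusted p = 0.0514), without the filter on low counts (adjusted p = 0.0594) and in a fit of the 2 groups alone (adjusted p = 0.0682). By the treatment entry it was 1.23 (adjusted p = 0.000165).

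Since Il6 and Lif were both higher in knockout cells, the bases before their starts are shown next to those of Icam1, which was lower. RefSeq entries (GRCm38.p6) matched 6 of the 10 genes. The stretches run 5′ to 3′ on the plus strand and end before the transcription start: chr5:30012864-30013113 for Il6, chr11:4257318-4257556 for Lif, which was shortened by 11 bases where the gene model of the table begins earlier, and chr9:21015690-21015939 for Icam1. Capitals mark exact matches to the NF-kappaB consensus GGGRNNYYCC and to the AP-1 letters TGANTCA on either strand. R stands for A or G, Y for C or T and N for any base.
Il6: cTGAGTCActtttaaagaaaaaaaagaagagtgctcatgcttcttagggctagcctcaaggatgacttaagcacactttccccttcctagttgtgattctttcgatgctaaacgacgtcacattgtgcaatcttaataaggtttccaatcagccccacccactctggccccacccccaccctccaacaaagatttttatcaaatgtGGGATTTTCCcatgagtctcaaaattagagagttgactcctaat
Lif: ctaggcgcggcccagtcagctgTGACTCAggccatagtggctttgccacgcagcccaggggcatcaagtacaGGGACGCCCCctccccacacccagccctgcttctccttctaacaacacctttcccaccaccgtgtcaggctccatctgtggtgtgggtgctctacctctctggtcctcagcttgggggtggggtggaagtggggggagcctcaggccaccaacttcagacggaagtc
Icam1: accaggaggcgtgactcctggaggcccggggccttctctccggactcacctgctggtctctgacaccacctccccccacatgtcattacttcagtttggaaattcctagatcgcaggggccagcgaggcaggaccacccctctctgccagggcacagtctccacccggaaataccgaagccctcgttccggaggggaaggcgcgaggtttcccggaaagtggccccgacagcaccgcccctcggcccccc
In the 250 bases before the RefSeq start, Il6 matched the NF-kappaB consensus 44 to 35 bases upstream, AP-1 249 to 243 bases upstream and the C/EBP letters TTGCNNAA 128 to 121 bases upstream. Lif matched NF-kappaB 178 to 169 bases and AP-1 228 to 222 bases upstream. Icam1 had no exact match to either and matched the STAT letters TTCNNNGAA 42 to 34 bases upstream. Its stretch tggaaattcc departs from the NF-kappaB consensus only at the first base and was not counted. Cxcl1 held overlapping NF-kappaB matches between 71 and 61 bases upstream, while Cxcl12 and Cx3cl1 matched none of the 4 motifs. Over all 32851 promoters of the same length, 7.25% held the NF-kappaB consensus, 6.75% AP-1, 7.02% STAT and 9.56% C/EBP. These matches describe letters and were not tested for binding. Of the genes with NF-kappaB or AP-1 matches, Il6 and Lif were higher in knockout cells over both media and Cxcl1 did not pass (-0.36, adjusted p = 0.64). Icam1, with the STAT match, was lower, and so were Cxcl12 and Cx3cl1, which had no match. The printed stretches were chosen by these directions, and a link between motif and direction was not tested.

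The receptors of both cytokines did not follow one direction. Lifr, which binds LIF, had means of 32.37 CPM in KO_Opti, 32.09 CPM in KO_Norm, 21.27 CPM in WT_Opti and 121.9 CPM in WT_Norm. It was lower in Opti in wild type cells (-2.52 ± 0.11, adjusted p = 1.28e-08) and lower in knockout cells over both media (-0.66 ± 0.08, adjusted p = 3.37e-05), an average of opposite calls: by title it was lower within Norm (-1.93 ± 0.11, adjusted p = 1.12e-07) and higher within Opti (0.61 ± 0.11, adjusted p = 0.00125). Il6st, the shared chain, was higher in knockout cells (0.63 ± 0.13, adjusted p = 0.00293) and differed by -0.01 between the media in wild type cells (adjusted p = 0.963). Il6ra, the ligand-binding chain of the IL-6 receptor, was also higher in knockout cells over both media (0.56 ± 0.19, adjusted p = 0.0397). By title it passed neither within Norm (0.47, adjusted p = 0.211) nor within Opti (0.66, adjusted p = 0.0909).

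Genes that answer to this pathway were also measured. Socs3, an inhibitor of gp130 signalling that STAT3 induces, was higher by 0.92 ± 0.09 over both media (adjusted p = 1e-05), with 39.8 to 49.2 CPM in KO_Opti, 43.6 to 45.5 CPM in KO_Norm, 14.0 to 20.5 CPM in WT_Opti and 30.7 to 35.0 CPM in WT_Norm. Pim1, a kinase gene that STAT3 also induces, was higher by 1.65 ± 0.13 (adjusted p = 1.04e-06). Cntfr, which encodes the binding chain for ciliary neurotrophic factor, was lower by 2.28 ± 0.21 log2 units in knockout cells (adjusted p = 5.33e-06). Of 20 further genes of the family and its JAK and STAT3 signalling that were tested, 8 were higher and 4 lower in knockout cells over both media (median 0.25). In Opti in wild type cells 3 were higher and 7 lower (median -0.26). Over all genes tested, 34% and 39.8% were called in these comparisons.

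Ccl2 and Ccl7 encode monocyte chemoattractants of the CC class that act through the receptor CCR2, and the genes lie 8258 bases apart on chromosome 11 (82035571 to 82037453 and 82045712 to 82047525). Ccl2 measured 10.11, 8.952 and 9.914 CPM in KO_Opti, 10.41, 15.22 and 10.84 CPM in KO_Norm, 4.453, 2.967 and 2.83 CPM in WT_Opti, and 20.25, 9.406 and 9.426 CPM in WT_Norm. WT_Opti was below the other 3 groups, which overlapped. Ccl2 was lower in Opti in wild type cells (-1.93 ± 0.30, adjusted p = 0.000206) and differed by -0.33 between the media in knockout cells (adjusted p = 0.463), and the interaction was 1.60 ± 0.41 (adjusted p = 0.0098). Within Opti it was higher in knockout cells by 1.5 ± 0.29 (adjusted p = 0.0021), whereas in Norm it differed by -0.10 (adjusted p = 0.812). Over both media the difference was 0.70 ± 0.20 (adjusted p = 0.0182), and the interaction was 2.26 under the treatment entry (adjusted p = 0.000938).

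Ccl7 took another course than its neighbour. It measured 7.819, 4.49 and 4.905 CPM in KO_Opti, 9.883, 19.66 and 13.89 CPM in KO_Norm, 7.449, 6.541 and 7.987 CPM in WT_Opti, and 9.021, 5.839 and 5.371 CPM in WT_Norm. KO_Norm was the only group above 9.1 CPM. In Norm, Ccl7 was higher in knockout cells by 1.10 ± 0.28 (adjusted p = 0.0088). It was lower in KO_Opti than in KO_Norm (-1.34 ± 0.28, adjusted p = 0.00627) and differed by 0.12 between the media in wild type cells (adjusted p = 0.778), with an interaction of -1.45 ± 0.40 (adjusted p = 0.0142). Under the treatment entry the knockout response was 1.34 and the interaction 1.22 (adjusted p = 0.0298), and the genotypes differed within Opti (0.98, adjusted p = 0.0219) and not past the threshold within Norm (-0.24, adjusted p = 0.528).

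The ratio of Ccl2 to Ccl7 counts within a library does not depend on library size. It was 1.29 to 2.02 in KO_Opti, 0.774 to 1.05 in KO_Norm, 0.354 to 0.598 in WT_Opti and 1.61 to 2.25 in WT_Norm. In wild type cells the ratio was below 1 in each Opti library and above 1 in each Norm library, and in knockout cells the order was the opposite by title. Both genes are also made by macrophages. Csf1r, a receptor gene of macrophages, measured 8.59 to 11.4 CPM in KO_Opti, 27.5 to 28.3 CPM in KO_Norm, 14.6 to 27.7 CPM in WT_Opti and 32.3 to 48.2 CPM in WT_Norm. The myeloid markers as a list did not follow Csf1r in wild type cells. Their sum was 692 to 1210 CPM in WT_Opti and 577 to 719 CPM in WT_Norm. Of the 13 tested, 3 were higher and 1 was lower in Opti in wild type cells (20.3% and 19.6% of all genes). The part of macrophages in the levels of Ccl2 and Ccl7 was not tested. Ccr2, the receptor of both ligands, was too low to be tested, with 88 counts in all 12 libraries.

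Cxcl1 and Cxcl5 encode chemokines of the ELR class, which draw neutrophils through the receptor CXCR2. Cxcl5 measured 6.852, 10.72 and 13.24 CPM in KO_Opti, 13.17, 11.88 and 1.819 CPM in KO_Norm, 6.536, 9.866 and 7.06 CPM in WT_Opti, and 83.53, 7.307 and 7.787 CPM in WT_Norm. Cxcl1 measured 5.445, 6.178 and 7.063 CPM in KO_Opti, 4.052, 4.976 and 1.557 CPM in KO_Norm, 2.112, 4.008 and 3.129 CPM in WT_Opti, and 29.16, 1.831 and 4.293 CPM in WT_Norm. For both genes WT_Norm replicate 1 was far above the other 11 libraries and KO_Norm replicate 3 was the lowest of all 12. Neither gene passed the threshold in any of the 6 comparisons. The medium difference in wild type cells was -1.93 ± 0.76 for Cxcl1 (adjusted p = 0.0605) and -2.07 ± 0.86 for Cxcl5 (adjusted p = 0.0715).

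Without WT_Norm replicate 1 the medium differences in wild type cells were 0.01 for Cxcl1 and 0.04 for Cxcl5. Without WT_Norm replicate 2 or 3 both passed, at -2.46 and -2.35 for Cxcl1 (adjusted p = 0.0083 and 0.0314) and at -2.56 for Cxcl5 (adjusted p = 0.0267 and 0.0291). The comparison of genotypes in Norm behaved in the same way: Cxcl1 was 0.21 without replicate 1 and -2.25 without replicate 2 (adjusted p = 0.015), and Cxcl5 was 0.25 without replicate 1, -2.35 without replicate 2 (adjusted p = 0.0414) and -2.36 without replicate 3 (adjusted p = 0.0461). The Cxcl1 interaction passed without replicate 2 or 3 (3.27 and 3.15, adjusted p = 0.0116 and 0.0378). Cxcl1 also passed within Opti, higher in knockout cells, in a fit of those 2 groups alone (1.01, adjusted p = 0.011). The keratin genes Krt8 and Krt18, defining markers of simple epithelium, were highest in the same WT_Norm library, and in KO_Norm replicate 3, the library with the least Cxcl5, Krt8 was at 0. Within groups, the lowest Krt8 and Cxcl5 fell in the same library in KO_Opti and KO_Norm but not in WT_Opti and WT_Norm. The highest of both fell in the same library in WT_Norm alone. Over all 12 libraries both genes were highest in WT_Norm replicate 1 and lowest in KO_Norm replicate 3. The summed level of 6 epithelial markers was 1.28 to 23 CPM in KO_Opti, 1.79 to 14.8 CPM in KO_Norm, 7 to 15.7 CPM in WT_Opti and 2.57 to 144 CPM in WT_Norm, and their part in the levels of Cxcl1 and Cxcl5 was not tested. WT_Norm replicate 2 held 93.5 CPM of the keratin gene Krt14 with low levels of both chemokines. The receptor gene Cxcr2 was too low to be tested, with 43 counts in all libraries.

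**Figure D4:**
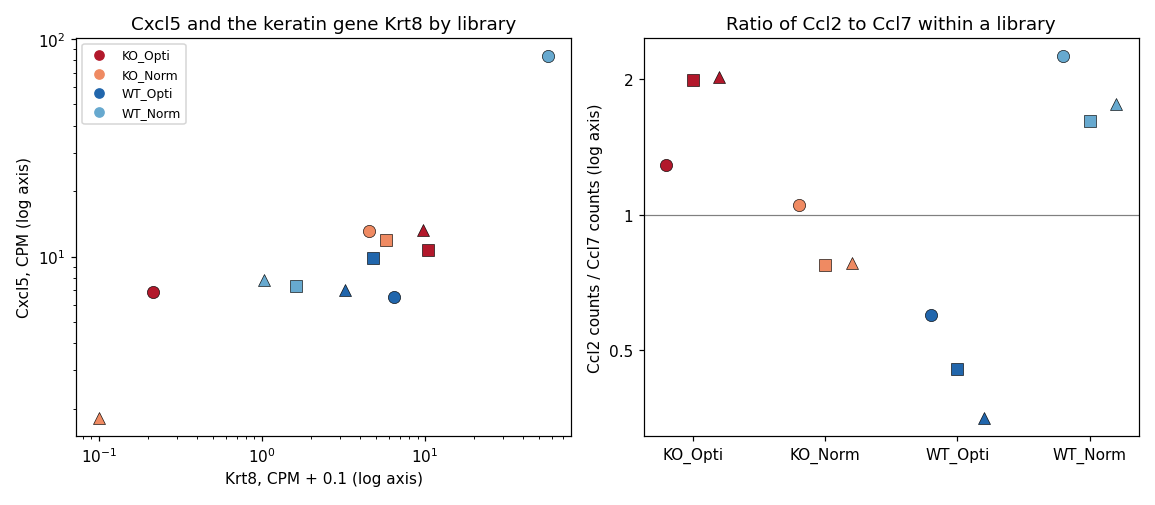
Left, Cxcl5 (CPM) against the keratin gene Krt8 (CPM plus 0.1), both on log axes, with 1 point per library. WT_Norm replicate 1 (83.53 CPM of Cxcl5, 56.8 CPM of Krt8) and KO_Norm replicate 3 (1.819 CPM of Cxcl5, no Krt8) lie at opposite ends. Right, the ratio of Ccl2 to Ccl7 counts in each library on a log axis, with circles, squares and triangles for replicates 1, 2 and 3. The ratio is below 1 in the 3 WT_Opti libraries and above 1 in the 3 KO_Opti and the 3 WT_Norm libraries.

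Cxcl12 encodes a homeostatic chemokine of stromal cells that retains haematopoietic cells and is bound by CXCR4 and by the scavenging receptor encoded by Ackr3. It measured 19.06, 18.96 and 23.27 CPM in KO_Opti, 30.10, 37.32 and 31.73 CPM in KO_Norm, 45.92, 23.48 and 27.96 CPM in WT_Opti, and 102.8, 53.93 and 75.73 CPM in WT_Norm. WT_Norm was above the other groups and KO_Opti below them. It was lower in Opti in wild type cells (-1.26 ± 0.25, adjusted p = 0.00146), and lower in knockout cells over both media (-0.95 ± 0.18, adjusted p = 0.00117) and within Norm (-1.23 ± 0.25, adjusted p = 0.00215). Within Opti the genotypes differed by -0.67 (adjusted p = 0.0628), which passed with DESeq2 (adjusted p = 0.0287), in a fit of the 2 groups (adjusted p = 0.0465) and without WT_Norm replicate 1, WT_Norm replicate 2 or WT_Opti replicate 2 (adjusted p between 0.032 and 0.0449), and under the treatment entry it was 0.03. In knockout cells the medium difference of -0.69 missed the threshold (adjusted p = 0.0703), and it passed with DESeq2 (adjusted p = 0.0283), in a fit of the 2 groups (adjusted p = 0.0113) and without WT_Norm replicate 1, WT_Norm replicate 2 or WT_Opti replicate 1 (adjusted p between 0.033 and 0.0483). The interaction was not past the threshold by title but was 0.89 without WT_Opti replicate 1 (adjusted p = 0.0447) and 1.95 under the treatment entry (adjusted p = 0.00095).

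Among its receptors, Ackr3 went the other way between genotypes. Ackr3 measured 21.1 to 23.5 CPM in KO_Opti, 16.1 to 19.7 CPM in KO_Norm, 3.99 to 6.17 CPM in WT_Opti and 13.6 to 18.3 CPM in WT_Norm. It was higher in knockout cells by 1.21 ± 0.12 (adjusted p = 7.76e-06), by 2.16 ± 0.17 within Opti (adjusted p = 2.33e-06) and by 0.26 within Norm, where it did not pass (adjusted p = 0.245), and lower in Opti in wild type cells (-1.62 ± 0.17, adjusted p = 9.43e-06). Cxcr4, the signalling receptor, was lower in knockout cells by 1.06 ± 0.18 log2 units (adjusted p = 0.000675) at 0.952 to 3.62 CPM.

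Cx3cl1 encodes fractalkine, a chemokine on a membrane-bound stalk that is both an adhesion molecule and, after cleavage by ADAM10 or ADAM17, a soluble attractant of cells with the receptor CX3CR1. It measured 22.65, 23.56 and 26.59 CPM in KO_Opti, 29.14, 25.02 and 30.49 CPM in KO_Norm, 27.40, 22.71 and 25.27 CPM in WT_Opti, and 62.39, 51.23 and 79.60 CPM in WT_Norm. WT_Norm stood above the other 3 groups, which overlapped. Cx3cl1 was lower in Opti in wild type cells (-1.36 ± 0.15, adjusted p = 1.26e-05) and differed by -0.22 between the media in knockout cells (adjusted p = 0.341), with an interaction of 1.14 ± 0.21 (adjusted p = 0.00123; 1.57 under the treatment entry). In Norm it was lower in knockout cells (-1.19 ± 0.15, adjusted p = 5.63e-05), in Opti it differed by -0.05 (adjusted p = 0.846), and over both media the difference was -0.62 ± 0.10 (adjusted p = 0.000558). With the Y-linked covariate the differences were -0.22 in Norm (adjusted p = 0.709) and 0.06 over both media (adjusted p = 0.901), and neither passed. Between genotypes the protease gene Adam10 differed by -0.02 (adjusted p = 0.882) and Adam17 by -0.09 (adjusted p = 0.496), and Adam10 was lower in Opti in wild type cells (-0.41 ± 0.15, adjusted p = 0.0418). The receptor gene Cx3cr1, which is typical of macrophages, was lower in knockout cells over both media (-1.03 ± 0.21, adjusted p = 0.00251) and in Opti in wild type cells (-2.23 ± 0.31, adjusted p = 9.04e-05). By title its genotype difference passed within Norm (-1.5, adjusted p = 0.002) and not within Opti (-0.56, adjusted p = 0.197).

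Icam1 encodes a ligand of the leukocyte integrins LFA-1 and Mac-1. It measured 3.483, 3.82 and 3.942 CPM in KO_Opti, 3.05, 3.969 and 4.502 CPM in KO_Norm, 19.19, 12.18 and 12.01 CPM in WT_Opti, and 18.36, 17.14 and 14.47 CPM in WT_Norm. The highest knockout library was below the lowest wild type library, and within a genotype the media overlapped. Icam1 was lower in knockout cells by 2.03 ± 0.15 log2 units over both media (adjusted p = 6.37e-07), by 2.12 ± 0.21 in Norm (adjusted p = 7.66e-06) and by 1.95 ± 0.20 in Opti (adjusted p = 1.99e-05). Under the treatment entry the values within Norm and within Opti were -2.15 and -1.91. Between the media it differed by -0.03 in knockout cells (adjusted p = 0.932) and by -0.20 in wild type cells (adjusted p = 0.446), and leaving out any one library kept the difference between genotypes over both media within -2.10 to -1.90. Icam1 (chromosome 9, 21015985 to 21028817) lies on the same chromosome as Cspg4, 35.8 Mb away. Icam5, which begins 3.3 kb after Icam1, was also lower in knockout cells (-1.24 ± 0.11, adjusted p = 3.24e-06), while Icam4, between them, had 89 counts in all and did not pass (0.30 ± 0.80, adjusted p = 0.808).

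Vcam1 encodes the counterpart of the integrin VLA-4, the pair of the chains encoded by Itga4 and Itgb1. It measured 84.84, 103.9 and 104.1 CPM in KO_Opti, 108.6, 112.3 and 103.4 CPM in KO_Norm, 94.76, 79.39 and 89.90 CPM in WT_Opti, and 156.3, 151.1 and 115.6 CPM in WT_Norm. The WT_Norm libraries were the 3 highest, and no group average differed from another by as much as 2-fold. In wild type cells Vcam1 was lower in Opti (-0.68 ± 0.12, adjusted p = 0.000747), and over both media the genotypes differed by -0.12 (adjusted p = 0.331). In Norm it was lower in knockout cells (-0.38 ± 0.12, adjusted p = 0.0278), a call that was lost without WT_Norm replicate 1 or 2 or without any one of the KO_Norm libraries (-0.41 to -0.30, adjusted p between 0.0559 and 0.112). The interaction of 0.53 ± 0.17 (adjusted p = 0.0338) was lost when any one of 8 libraries was left out: WT_Norm replicate 1 or 2, WT_Opti replicate 2, KO_Opti replicate 2 or 3, or KO_Norm replicate 1, 2 or 3 (0.46 to 0.56, adjusted p between 0.0531 and 0.0955).

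Endothelial cells make ICAM-1, VCAM-1, fractalkine and CXCL12 as well. The summed level of 9 endothelial markers was 2.13 to 2.5 CPM in KO_Opti, 3.61 to 4.2 CPM in KO_Norm, 4.75 to 6.86 CPM in WT_Opti and 5.51 to 61.3 CPM in WT_Norm, where replicate 2 was the highest. Of the 8 tested, 5 were lower and 0 higher in knockout cells over both media (16% and 18% of all genes). In Opti in wild type cells 5 were lower and 0 higher (19.6% and 20.3% of all genes). Without WT_Norm replicate 2 the differences between genotypes over both media were -2.02 for Icam1 (adjusted p = 2.92e-06), -1.05 for Cxcl12 (adjusted p = 0.000462) and -0.69 for Cx3cl1 (adjusted p = 0.000157). Without the same library the medium differences in wild type cells were -1.47 for Cxcl12 (adjusted p = 0.000481), -1.51 for Cx3cl1 (adjusted p = 5.45e-06) and -0.64 for Vcam1 (adjusted p = 0.00321). These 6 calls held, while the Vcam1 difference between genotypes within Norm lost its call (-0.33, adjusted p = 0.0865). WT_Norm replicate 2 was not the highest WT_Norm library for any of these genes. The endothelial sums also separate the genotypes without it, at most 4.2 CPM in knockout and at least 4.75 CPM in wild type libraries. Leaving it out therefore cannot show the part of endothelial cells in these levels, which was not tested.

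On the leukocyte side, Itga4 was lower in knockout cells by 1.56 ± 0.13 log2 units (adjusted p = 1.45e-06), Itgb2, the shared chain of LFA-1 and Mac-1, by 0.98 ± 0.20 (adjusted p = 0.0019), and Selplg, the selectin ligand gene, by 1.34 ± 0.25 (adjusted p = 0.00132). By title the Itgb2 difference lay within Opti (-1.96 ± 0.28, adjusted p = 0.000241) and was 0.00 within Norm (adjusted p = 0.993), with an interaction of -1.97 (adjusted p = 0.00216). Selplg passed within Opti (-2.03 ± 0.37, adjusted p = 0.00123) and not within Norm (-0.65, adjusted p = 0.172). Itgal, the other chain of LFA-1, was lower in Opti in wild type cells (-2.14 ± 0.45, adjusted p = 0.00204) and differed by -0.35 between genotypes (adjusted p = 0.415). Itgb1, an integrin chain of nearly all cells, differed by 0.08 between genotypes (adjusted p = 0.59). Itgb7 was higher in knockout cells (1.86 ± 0.17, adjusted p = 5.33e-06). Of 14 adhesion partners tested, 7 were lower and 1 was higher in knockout cells over both media (median -0.44). In Opti in wild type cells 7 were lower and 0 higher (median -0.40). The shares of all genes called were 34% and 39.8%. Itgb2 and Selplg are expressed by leukocytes, the summed myeloid markers were lowest in KO_Opti, and the part of myeloid cells in these values was not tested.

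Other chemokines were mostly low or not past the threshold. Of 19 tested outside the 6, 1 was higher and 6 were lower in knockout cells over both media (median -0.71). In Opti in wild type cells 0 were higher and 4 lower (median -0.82). The shares of all genes called were 34% and 39.8%. Cxcl14, a chemokine of epithelia and fibroblasts, had means of 16.06 CPM in KO_Opti, 13.21 CPM in KO_Norm, 9.649 CPM in WT_Opti and 45.3 CPM in WT_Norm, and was lower in Opti in wild type cells (-2.23 ± 0.22, adjusted p = 4.99e-06). Ccl9, a CC chemokine of myeloid cells in mice, was lower in Opti in wild type cells (-2.32 ± 0.39, adjusted p = 0.000451) and higher in knockout cells over both media (1.62 ± 0.27, adjusted p = 0.000495). By title Ccl9 passed within Opti (2.3, adjusted p = 0.000838) and not within Norm (0.95, adjusted p = 0.0595). Ccl28 and Ccl5 were lower in knockout cells over both media, by 0.95 ± 0.25 (adjusted p = 0.0105) and 1.85 ± 0.50 log2 units (adjusted p = 0.0123). Within Opti Ccl28 did not pass (-0.60, adjusted p = 0.22). Ccl5 had 310 counts in all and passed neither within Norm (adjusted p = 0.0578) nor within Opti (adjusted p = 0.0675).

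Of 13 chemokine receptors tested, 2 were higher and 7 lower in knockout cells over both media (median -0.74), against 34% of all genes called. In Opti in wild type cells 0 were higher and 5 lower (median -0.91), against 39.8% of all genes. Cxcr6, the receptor of CXCL16, measured 0.67 to 1.22 CPM in KO_Opti, 1.57 to 2.44 CPM in KO_Norm, 0.0621 to 0.0714 CPM in WT_Opti and 2.37 to 2.94 CPM in WT_Norm. It was lower in Opti in wild type cells (-5.33 ± 0.37, adjusted p = 2.94e-07), and higher in knockout cells over both media (1.69 ± 0.23, adjusted p = 0.000101) through Opti (3.88 ± 0.36, adjusted p = 7.32e-06), where WT_Opti was near 0, and not in Norm (-0.50, adjusted p = 0.195). Ackr4, a scavenging receptor of CC chemokines, was lower in knockout cells over both media (-0.74 ± 0.11, adjusted p = 0.000226) and within Norm (-1.24 ± 0.16, adjusted p = 6.09e-05), differed by -0.24 within Opti (adjusted p = 0.288), and was lower in Opti in wild type cells (-0.91 ± 0.16, adjusted p = 0.000466).

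Genes upstream of these messages did not move as one. Of 21 tested genes of NF-kappaB factors, inhibitors and targets, 5 were higher and 2 lower in knockout cells over both media (median 0.09). In Opti in wild type cells 5 were higher and 7 lower (median -0.08). Over all genes tested, 34% and 39.8% were called in these comparisons. Ptgs2, which encodes the inducible cyclooxygenase COX-2, had means of 105 CPM in KO_Opti, 126.4 CPM in KO_Norm, 43.94 CPM in WT_Opti and 178.7 CPM in WT_Norm, and was lower in Opti in wild type cells (-2.02 ± 0.14, adjusted p = 3.36e-07) and higher in knockout cells over both media (0.38 ± 0.10, adjusted p = 0.0097). That average joins opposite calls: by title Ptgs2 was higher in knockout cells within Opti (1.26 ± 0.14, adjusted p = 3.2e-05) and lower within Norm (-0.50 ± 0.14, adjusted p = 0.0135). Nfkbia, the inhibitor that NF-kappaB itself induces, and Rel, an NF-kappaB subunit, were lower in Opti in wild type cells (-0.83 ± 0.13, adjusted p = 0.000237, and -0.94 ± 0.13, adjusted p = 9.53e-05). Tnip1, which restrains the pathway, was higher there (1.04 ± 0.09, adjusted p = 2.21e-06) and lower in knockout cells over both media (-0.47 ± 0.06, adjusted p = 0.000122), with -0.83 within Opti (adjusted p = 3.11e-05) and -0.12 within Norm (adjusted p = 0.356).

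Among 18 inducing cytokines and innate receptors tested, 5 were higher and 5 lower in knockout cells over both media (median -0.13), against 34% of all genes called. In Opti in wild type cells 4 were higher and 5 lower (median 0.06), against 39.8% of all genes. Il1r1, the signalling IL-1 receptor, was lower in knockout cells by 0.86 ± 0.10 log2 units (adjusted p = 3.11e-05). Il1rn, the secreted IL-1 antagonist, averaged 1.91 CPM in KO_Opti, 2.032 CPM in KO_Norm, 1.851 CPM in WT_Opti and 15.14 CPM in WT_Norm, and it was lower in Opti in wild type cells (-3.03 ± 0.29, adjusted p = 3.81e-06) and in knockout cells over both media (-1.43 ± 0.20, adjusted p = 0.000119), with -2.90 within Norm (adjusted p = 8.63e-06) and 0.04 within Opti (adjusted p = 0.935). Tlr2, a receptor of bacterial lipoproteins, and Myd88, its adaptor, were higher in Opti in wild type cells (1.15 ± 0.11, adjusted p = 3.77e-06, and 0.71 ± 0.09, adjusted p = 3.14e-05).

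Genes that act on these messages after transcription were lower in Opti in wild type cells for 5 of 13 tested and higher for 1 (median -0.13). Between genotypes over both media 4 were higher and 2 lower in knockout cells (median 0.08). The shares of all genes called were 39.8% and 34%. Zfp36, which encodes tristetraprolin, a protein that speeds the decay of cytokine and chemokine transcripts, was lower in Opti in wild type cells (-1.96 ± 0.15, adjusted p = 7.69e-07). Its paralog Zfp36l1 was lower there (-1.0 ± 0.08, adjusted p = 5.98e-07) and in knockout cells (-1.02 ± 0.05, adjusted p = 5.01e-08). Dusp1, a phosphatase that limits p38 signalling, was lower in Opti in wild type cells (-1.88 ± 0.19, adjusted p = 5.55e-06) and higher in knockout cells over both media (0.90 ± 0.13, adjusted p = 0.000164), with 1.49 within Opti (adjusted p = 7.5e-05) and 0.31 within Norm (adjusted p = 0.2). Timp3, an inhibitor of ADAM17, was higher in knockout cells (1.28 ± 0.13, adjusted p = 1.05e-05).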

How the data were processed

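RNA was sequenced in 12 libraries of mouse mandibular condylar fibrochondrocytes (poly(A), stranded, paired reads), 3 in each of 4 groups. Per the submitters' processing notes and the study's methods, the authors used FastQC for read quality, HISAT2 for alignment, StringTie for assembly and edgeR for expression. Not given in the sources used here are versions and the genome build. Of the 31075 gene identifiers, 99.71% are in GENCODE M21, and 99.99% of those overlap their GRCm38 position, so coordinates are given as GRCm38. The deposited values are raw counts per gene and FPKM, both made by the authors. Assembly-based counting can shift reads between overlapping genes.

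Counts were tested with edgeR 4.0.16 in R 4.3.3: filterByExpr (19118 genes kept), TMM scaling, a quasi-likelihood fit of all 12 libraries with 1 mean per group, two-sided tests, and Benjamini-Hochberg adjustment over all genes tested to a threshold of 0.05. Each SE is the absolute log2 fold change divided by the square root of its quasi-likelihood F statistic. For Il6 it therefore also depends on the prior count. CPM are counts scaled to library size with TMM factors. FPKM served to rank genes and, as log2(FPKM + 0.1) with limma 3.58.1, as an alternative. Depth was 51546504 to 71448484 counts, and 3 counts are 0.0385 to 0.0647 CPM. No library was a copy of another. Other alternatives were RLE size factors, no filter, DESeq2 1.42.0, leaving out each library, only the groups compared, a replicate block, the treatment entry for grouping and a Y-linked covariate. The edgeR step was tested on simulated data. The 10 genes and the gene lists were chosen with earlier results of these data known. All 10 were named, together with their receptors and partners and up to 4 genes per list with the smallest adjusted p for medium in wild type cells or for genotype over both media. Icam4 was named for its position after its values were seen, and so were the marker genes shown beside results.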

Additional observations from a re-analysis of the deposited data

Results flagged for a closer look

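For 6 of the 10 genes the response to Opti differed between genotypes by a test of the difference itself (knockout minus wild type, log2 scale, edgeR quasi-likelihood, groups by title; 31.4% of all genes passed). The difference was 5.69 for Il6 (adjusted p = 0.0056), 2.02 for Lif (adjusted p = 8.68e-05), 1.60 for Ccl2 (adjusted p = 0.0098), 1.14 for Cx3cl1 (adjusted p = 0.00123), 0.53 for Vcam1 (adjusted p = 0.0338) and -1.45 for Ccl7 (adjusted p = 0.0142). Under the treatment entry of the labels Ccl2 (2.26), Cx3cl1 (1.57) and Vcam1 (0.83) kept sign and call, Ccl7 passed with the opposite sign (1.22), Il6 turned to -1.06 and lost its call, and Lif kept its sign at 0.62 and lost its call (adjusted p = 0.0772). With the Y-linked covariate Lif kept its call (adjusted p = 0.00133) and the other 5 lost theirs (Il6 3.86, adjusted p = 0.179; Ccl2 1.52, adjusted p = 0.123; Cx3cl1 0.54, adjusted p = 0.091; Vcam1 0.75, adjusted p = 0.0545; Ccl7 -1.40, adjusted p = 0.144). Vcam1 also lost its call with a replicate block (adjusted p = 0.0512), on FPKM and when any one of 8 libraries was left out. With the Y-linked covariate 3457 interactions were called over all genes, against 6007 without it.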

How the results depend on the processing

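The 5 genes lower in Opti in wild type cells and the genotype difference of Icam1 kept direction and call under each alternative run. RLE size factors, no filter, DESeq2, fits of the compared groups alone and the replicate block turned no sign. Il6 could not be fitted in WT_Opti and WT_Norm alone, where the filter removed it. On FPKM the median of all genes moved to 0.18 for medium in wild type cells and to 0.11 for genotype, and 69.7% and 68.4% of called genes were higher, against 50.9% and 53.0% on counts. FPKM turned Cxcl1 (0.16) and Vcam1 (0.01) for genotype over both media, Ccl2 in Norm (0.15), Cx3cl1 in Opti (0.03) and Icam1 for medium in knockout cells (0.10). The Vcam1 calls in Norm (-0.20) and for the interaction (0.43) were lost.

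The treatment entry turned, for medium in knockout cells, Ccl2 (0.33), Ccl7 (1.34), Cxcl1 (-0.82), Cxcl5 (-0.20), Cxcl12 (0.69), Cx3cl1 (0.22), Il6 (-3.37), Lif (-0.70), Icam1 (0.03) and Vcam1 (0.15). It also turned Ccl7 in Norm (-0.24), Ccl7 (0.98), Cxcl12 (0.03) and Cx3cl1 (0.17) in Opti, and the interactions of Ccl7 (1.22) and Il6 (-1.06). With the Y-linked covariate the genes called were 1 for genotype over both media and 1 in Norm (Icam1), 1 for the interaction (Lif) and 1 for medium in knockout cells, where Il6, Lif and Ccl7 lost their calls and Cx3cl1 (-0.70) gained one, and the signs turned for Cx3cl1 over both media (0.06) and in Opti (0.33), Ccl2 in Norm (0.03), Cxcl5 in Opti (-0.19), Vcam1 for medium in knockout cells (0.04) and the Cxcl12 interaction (-0.01). Over all genes the calls with this covariate were 986 over both media, 909 in Norm, 3457 for the interaction and 1927 for medium in knockout cells. Without it they were 6491, 6896, 6007 and 3709. The cause was not tested.

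Leaving out 1 library gave 1 to 4 genes called for medium in knockout cells (1 without KO_Opti replicate 1 or KO_Norm replicate 3). Signs turned within these ranges: medium in wild type cells, Ccl7 -0.04 to 0.37, Cxcl1 -2.46 to 0.01 and Cxcl5 -2.56 to 0.04; medium in knockout cells, Cxcl5 -0.29 to 0.58 and Icam1 -0.18 to 0.09; genotype over both media, Cxcl1 -0.61 to 0.62 and Cxcl5 -0.98 to 0.32; in Norm, Ccl2 -0.30 to 0.37, Cxcl1 -2.25 to 0.21, Cxcl5 -2.36 to 0.25 and Il6 -0.44 to 0.68; in Opti, Cx3cl1 -0.12 to 0.01. A replicate block left 5 instead of 6 interactions called, as Vcam1 (0.53) had adjusted p = 0.0512, and changed no other call. Replicate numbers did not pair the libraries throughout: over 18 same-numbered pairs, deviations correlated from -0.244 to 0.283, 5 above 0.1, and 6 correlated best with their own number. Those 6 were replicates 1 and 3 among KO_Norm, WT_Opti and WT_Norm (0.074 to 0.283), and none involved KO_Opti. Depth limits Il6 alone, with 9 counts in WT_Opti.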
